A study of Mus musculus with 8 samples.

Results

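The enteroendocrine lineage transcription factors examined here are Neurog3, Neurod1, Insm1, Pax4, Pax6, Isl1, Nkx2-2, Rfx6 and Fev, 9 genes chosen by name from the 54139 genes of the deposited table. All 9 were found, each as a single row, and all 9 passed the filter on low counts that left 14701 genes to test. They were measured by RNA sequencing of mouse intestinal epithelial cells in 4 cKO libraries, from animals with a floxed Rictor allele and Villin-Cre, and in 4 WT libraries, from animals with Villin-Cre and no floxed allele named. Villin-Cre, a driver that expresses Cre recombinase in the intestinal epithelium, is therefore shared by both genotypes, and the enteroendocrine lineage arises within the tissue in which it acts. Rictor is the defining subunit of mTOR complex 2, and the comparison asks which transcripts differ in epithelium with Rictor deleted. The sources used here do not give age, sex, intestinal segment, the floxed exons or the animals behind each library, so p-values reflect spread among libraries that may partly be technical.

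Enteroendocrine cells are the scattered hormone-producing cells of the gut epithelium. They arise in the crypt from secretory progenitors in which Neurog3, a basic helix-loop-helix factor, is switched on for a short time. Neurog3 is followed by Neurod1, Insm1, Rfx6 and others that carry the cells through differentiation, and by factors such as Isl1, Pax6, Nkx2-2, Pax4 and Fev that act in particular hormone classes or in their precursors. Several of these factors also work in the endocrine pancreas and in neurons.

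Promoters are shown for Neurog3, which starts the cascade, and for Neurod1, Rfx6 and Isl1, which shared an arrangement of the cKO libraries around the WT libraries described below. Each runs 5′ to 3′ on the strand of the gene, from 250 bases before the annotated start to 50 bases from it, as given by RefSeq on GRCm38.p6. The windows are chr10:62132840-62133139 (plus strand), chr2:79456587-79456886 (minus), chr10:51685268-51685567 (plus) and chr13:116309639-116309938 (minus). Capitals mark each E-box, the letters CANNTG that helix-loop-helix factors such as Neurog3 and Neurod1 can bind.
Neurog3 promoter: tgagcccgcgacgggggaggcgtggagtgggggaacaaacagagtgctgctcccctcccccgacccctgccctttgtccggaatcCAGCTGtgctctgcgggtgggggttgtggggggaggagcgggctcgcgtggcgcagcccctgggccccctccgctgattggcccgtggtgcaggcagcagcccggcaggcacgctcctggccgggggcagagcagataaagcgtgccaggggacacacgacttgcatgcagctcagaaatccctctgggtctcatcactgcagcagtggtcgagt
Neurod1 promoter: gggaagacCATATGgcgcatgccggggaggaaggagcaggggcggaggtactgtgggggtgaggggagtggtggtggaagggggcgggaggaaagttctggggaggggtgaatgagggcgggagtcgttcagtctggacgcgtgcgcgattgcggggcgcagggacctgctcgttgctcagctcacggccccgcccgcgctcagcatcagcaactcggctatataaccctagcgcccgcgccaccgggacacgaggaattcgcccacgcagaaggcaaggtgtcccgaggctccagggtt
Rfx6 promoter: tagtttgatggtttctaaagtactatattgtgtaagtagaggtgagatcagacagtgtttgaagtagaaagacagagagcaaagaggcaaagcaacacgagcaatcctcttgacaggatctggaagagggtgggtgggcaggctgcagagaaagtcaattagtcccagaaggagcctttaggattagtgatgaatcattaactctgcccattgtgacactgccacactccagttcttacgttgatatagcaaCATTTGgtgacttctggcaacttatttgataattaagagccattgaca
Isl1 promoter: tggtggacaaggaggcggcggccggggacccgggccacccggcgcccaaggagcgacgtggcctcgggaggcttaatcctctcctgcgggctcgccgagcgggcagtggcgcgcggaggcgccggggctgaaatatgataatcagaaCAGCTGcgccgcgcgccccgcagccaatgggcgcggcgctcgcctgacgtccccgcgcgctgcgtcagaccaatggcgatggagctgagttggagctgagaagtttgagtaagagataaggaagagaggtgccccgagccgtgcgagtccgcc

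Each of these 4 windows held 1 E-box, against a mean of 1.39 per promoter and at least 1 in 72.3% of 32851 promoters of the same length. The E-box was CAGCTG in Neurog3 and in Isl1, at positions -165 and -103 from the start, and CAGCTG occurs in 16.3% of all the promoters. Neurod1 had CATATG at -242, and Rfx6 had CATTTG just after the start. Among the other factors there were 3 E-boxes in the Nkx2-2 window, among them CATCTG, and 0 in the Fev window. CATCTG is the other strand of CAGATG, which is found in 17.2% of the promoters. The Nkx2-2 and Fev windows each held 1 match to TNAAGTG on either strand, the core of the site bound by NKX2-2, which 11.5% of promoters hold, and CTAATG, searched as a LIM homeodomain site, was in none of the windows of these genes (7.36% of all promoters). In Nkx2-2 that match overlaps the E-box CACTTG. RefSeq promoters were found for 7 of the 9 genes, Pax6 having 2, and Insm1 and Pax4 are named only. A match of letters is a description of the sequence, not of binding.

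The 8 libraries had 15110451 to 18708335 counts. Rictor had 20.8 to 40.6 CPM (counts scaled to library size with TMM factors) in cKO libraries and 41.7 to 57.3 CPM in WT libraries, a log2 fold change of -0.55 ± 0.20 (SE) with an edgeR adjusted p of 0.921 (0.0190 before adjustment). Library 3 of cKO stood apart: a trend on gene length and GC content accounted for 29.2% of the variance in its deviations from the mean of the libraries, against 0.498% to 4.04% in the other 7. The fold change of each factor is therefore also given without it. Values without WT library 3, in which no factor reached its mean, are given further below. Epithelial identity was plain in all libraries, with enterocyte markers summing to 10200 to 15710 CPM in cKO and 8742 to 22040 CPM in WT, and enteroendocrine markers to 671 to 804 CPM in cKO and 526 to 691 CPM in WT. The 10 markers of pancreatic acinar and islet cells summed to 5.14 to 7.47 CPM in cKO and 4.86 to 9.02 CPM in WT, with Ins1, Ins2 and Ppy at 0 in all libraries. The 10 markers of enteric neurons and glia summed to 4.94 to 9.18 CPM in cKO and 4.53 to 14.2 CPM in WT. T cell markers summed to 184 to 602 CPM in cKO, highest in library 3, and to 145 to 491 CPM in WT. The 7 stroma markers summed to 2.63 to 3.85 CPM in cKO and 1.22 to 2.35 CPM in WT, with no overlap, and their part in the results was not tested.

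All 9 factors were detected in every library at low levels, between the 11.6 percentile (Pax4) and the 37.8 percentile (Insm1) of the genes tested by mean log2 CPM. Per gene length, Neurog3 and Insm1 were the most abundant, at 4.43 ± 0.749 and 3.65 ± 0.669 FPKM in cKO and 3.36 ± 0.966 and 3.30 ± 0.568 FPKM in WT (SD, n = 4 each). Both groups then had Fev, Nkx2-2 and Neurod1 close together, between 2.56 and 2.76 FPKM in cKO and between 2.02 and 2.27 FPKM in WT. Rfx6 followed at 1.78 ± 0.534 FPKM in cKO and 1.34 ± 0.0636 FPKM in WT, then Isl1 and Pax4 between 0.827 and 0.974 FPKM in cKO and between 0.731 and 0.868 FPKM in WT. Pax6 came last, at 0.212 ± 0.0633 FPKM in cKO and 0.233 ± 0.0265 FPKM in WT. In cKO every neighbouring pair in this order overlapped between libraries except Pax4 and Pax6. In WT the steps from Insm1 to Fev, Neurod1 to Rfx6, Rfx6 to Pax4 and Isl1 to Pax6 did not overlap. The FPKM of Pax6 rests on a gene length of 11694 bases in the table, while its longest transcript in GENCODE M21 has 4427 bases, so its level per length would be higher on the transcript.

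**Figure D1:**
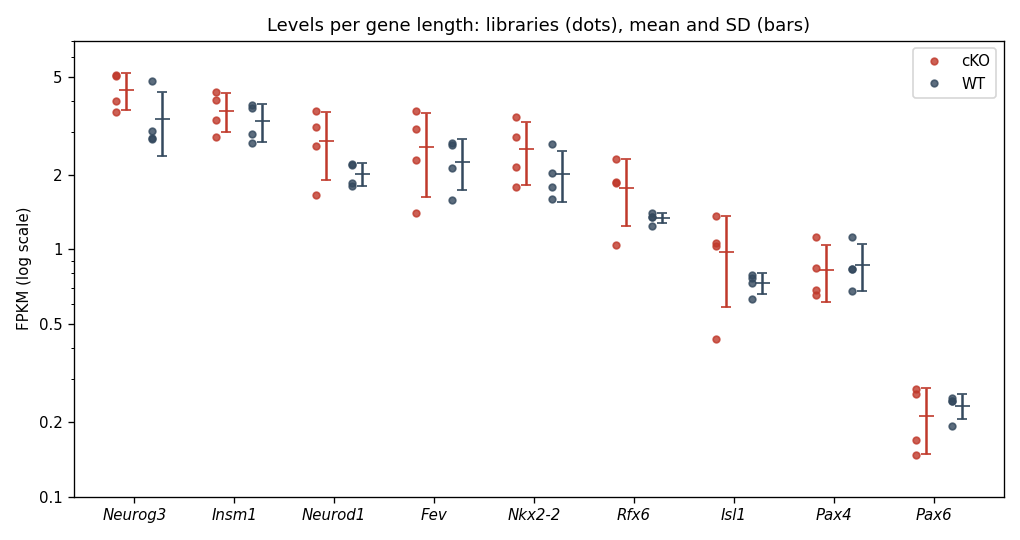
Levels of the 9 factors in FPKM on a log axis, with cKO (red) left of WT (blue), a dot for each library and bars for mean and SD (n = 4 each). Neurog3 and Insm1 are highest in both genotypes, Pax6 is lowest, and the cKO libraries spread more widely than the WT libraries for Neurod1, Rfx6 and Isl1.

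No factor passed the adjusted threshold between genotypes. By edgeR's quasi-likelihood test 0 of 9 had an adjusted p under 0.05, as did 0.0136% of all genes tested (0.0068% with higher levels in cKO), and 0 of 9 had an unadjusted p under 0.05, against 3.9% of all genes tested. DESeq2 also called 0 of the 9 at an adjusted p under 0.05, against 0.236% of genes, and 0 of the 9 before adjustment, against 2.82%. With limma voom and sample quality weights 0 of the 9 passed, against 0.0544% of genes, and 4 (Neurog3, Neurod1, Isl1 and Rfx6) had an unadjusted p under 0.05, against 8.14% of genes. The point estimate was higher in cKO for 7 factors and lower for 2, with a median log2 fold change of 0.34, against 50.5% of all genes higher and a median of 0.0022. The cKO and WT libraries overlapped for each of the 9, while they did not overlap for 3.21% of genes tested. The 10 T cell markers had a higher estimate in cKO in 10 of 10 cases, with a median log2 fold change of 0.40 and 0 called, and their part in the factors' values was not tested. Without cKO library 3 all 9 factors had a higher estimate in cKO, against 49.1% of all genes. Without WT library 3 the estimate was higher for 7 and lower for 2, against 51.1% of all genes higher. The median log2 fold change of the factors was then 0.24. Without both libraries 3 the estimate was higher for 6 and lower for 3, against 49.8% of all genes higher. In a tissue sample a change in the number of cells of a type and a change in RNA per cell cannot be told apart.

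Neurog3, the factor that commits a progenitor to the endocrine fate (ENSMUSG00000044312, GRCm38 chromosome 10, 62133090 to 62134763, plus strand), had 6.10, 8.63, 8.54 and 6.74 CPM in cKO libraries 1 to 4, against 4.77, 5.09, 4.76 and 8.13 CPM in WT libraries 1 to 4. The cKO libraries all lay above WT libraries 1 to 3, and WT library 4 lay between the lower and the upper pair of cKO libraries. The fold change was 1.32 (95% interval 0.935 to 1.86), with an exact two-sided permutation p of 0.171 for the difference in mean CPM and an edgeR adjusted p of 0.921. It was 1.26 without cKO library 3, while the log2 fold change of 0.40 became 0.62 without WT library 4. Neurog3 lies within the bounds of Fam241b, a gene on the opposite strand with 1162 counts over the cKO libraries and 1244 over the WT libraries. The strand setting of the counting is unknown, so reads of the overlapping pair may not be told apart.

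Pax4, a paired-homeodomain repressor of endocrine precursors (ENSMUSG00000029706, chromosome 6, 28442334 to 28449353, minus strand), had 1.01, 1.65, 0.955 and 1.22 CPM in cKO libraries 1 to 4 and 1.64, 1.22, 0.989 and 1.22 CPM in WT libraries 1 to 4. The groups covered the same range. The fold change was 0.951 (95% interval 0.600 to 1.51), the exact permutation p was 0.800 and the edgeR adjusted p was 0.973. With only 16 to 31 counts per library, changes smaller than that interval were not detectable at this depth, and the sign of the estimate turned without any of WT library 1, cKO library 1 or cKO library 3, the fold change being 1.02 without that last library.

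Neurod1, a helix-loop-helix factor that acts after Neurog3 (ENSMUSG00000034701, chromosome 2, 79452521 to 79456751, minus strand), had 10.1, 8.68, 4.55 and 7.19 CPM in cKO libraries 1 to 4, against 4.98, 6.02, 6.12 and 5.14 CPM in WT libraries 1 to 4. Libraries 1, 2 and 4 of cKO were above every WT library, and cKO library 3 was below them all. Its fold change was the highest of the 9, at 1.37 (95% interval 0.950 to 1.97, exact permutation p of 0.171, edgeR adjusted p of 0.921). Without cKO library 3 it was 1.55, with an edgeR p of 0.00569 before and 0.933 after adjustment over all genes. The log2 fold change of 0.45 became 0.29 without cKO library 1, the lowest with any library left out.

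Rfx6, a winged-helix factor needed for endocrine differentiation (ENSMUSG00000019900, chromosome 10, 51677756 to 51730432, plus strand), had 7.58, 7.68, 4.21 and 9.37 CPM in cKO libraries 1 to 4. The WT libraries 1 to 4 lay close together at 5.67, 5.47, 5.07 and 5.503 CPM. Again cKO libraries 1, 2 and 4 were above, and cKO library 3 below, every WT library. The fold change was 1.33 (95% interval 0.929 to 1.89, exact permutation p of 0.143, edgeR adjusted p of 0.921), and 1.51 without cKO library 3, with an edgeR p of 0.00426 before and 0.885 after adjustment. Its log2 fold change of 0.41 became 0.26 without cKO library 4.

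Isl1, a LIM-homeodomain factor of several hormone classes (ENSMUSG00000042258, chromosome 13, 116298281 to 116309689, minus strand), had 4.15, 5.49, 1.74 and 4.24 CPM in cKO libraries 1 to 4, against 3.08, 3.15, 2.53 and 2.94 CPM in WT libraries 1 to 4. Its arrangement was that of Rfx6, with cKO library 3 below every WT library and the other cKO libraries above. The fold change was 1.33 (95% interval 0.827 to 2.15, exact permutation p of 0.314, edgeR adjusted p of 0.921), and 1.58 without cKO library 3 (edgeR p of 0.0106 before adjustment and 0.9995 after it). Without cKO library 2 it was 1.16, with an edgeR p of 0.529 before adjustment and 0.8945 after it. The arrangement shared by Neurod1, Rfx6 and Isl1 was noticed in these libraries, and 87 of the 14701 genes tested had it (0.592%). Library 3 of cKO alone was the lowest of the 8 libraries for 5 of the 9 factors and for 27% of the genes tested.

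Insm1, a zinc-finger repressor of the early endocrine cell (ENSMUSG00000068154, chromosome 2, 146221921 to 146225020, plus strand), had 9.004, 13.7, 10.4 and 12.6 CPM in cKO libraries 1 to 4 and 11.7, 9.18, 8.46 and 12.1 CPM in WT libraries 1 to 4. Its groups were interleaved, with a fold change of 1.11 (95% interval 0.835 to 1.46, exact permutation p of 0.457, edgeR adjusted p of 0.924). It was the best-counted factor, with 137 to 232 counts per library, and had the narrowest interval. Nkx2-2, a homeodomain factor of endocrine cells (ENSMUSG00000027434, chromosome 2, 147177546 to 147194243, minus strand), had 5.21, 10.0, 6.24 and 8.28 CPM in cKO libraries 1 to 4 and 7.79, 5.20, 4.63 and 5.93 CPM in WT libraries 1 to 4. Only cKO libraries 2 and 4 exceeded every WT library, and the fold change was 1.26 (95% interval 0.866 to 1.84, exact permutation p of 0.229, edgeR adjusted p of 0.921). Without cKO library 3 the fold change was 1.14 for Insm1 and 1.33 for Nkx2-2, and without cKO library 2 it was 1.04 for Insm1 and 1.12 for Nkx2-2. The opposite-strand transcript 6430503K07Rik overlaps Nkx2-2 and had 83 counts in cKO and 54 in WT, and Nkx2-2os had 0.

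Pax6, a paired-homeodomain activator known for proglucagon expression (ENSMUSG00000027168, chromosome 2, 105668900 to 105697364, plus strand), had 3.08, 3.25, 1.74 and 1.99 CPM in cKO libraries 1 to 4, against 2.97, 2.87, 2.29 and 2.87 CPM in WT libraries 1 to 4. Here cKO libraries 1 and 2 were above and cKO libraries 3 and 4 below all the WT libraries. The fold change was 0.914 (95% interval 0.611 to 1.37, exact permutation p of 0.600, edgeR adjusted p of 0.950), and 1.01 without cKO library 3. Fev, an ETS factor known from serotonin-producing cells (ENSMUSG00000055197, chromosome 1, 74881509 to 74885419, minus strand), had 2.31, 3.78, 5 and 5.91 CPM in cKO libraries 1 to 4, against 4.401, 3.48, 2.59 and 4.34 CPM in WT libraries 1 to 4. The cKO libraries held both the lowest and the highest values of Fev. Its fold change was 1.15 (95% interval 0.722 to 1.82, exact permutation p of 0.543, edgeR adjusted p of 0.932). Leaving out cKO library 3 gave a fold change of 1.08, leaving out library 1 gave 1.32 and leaving out library 4 gave 1.002.

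**Figure D2:**
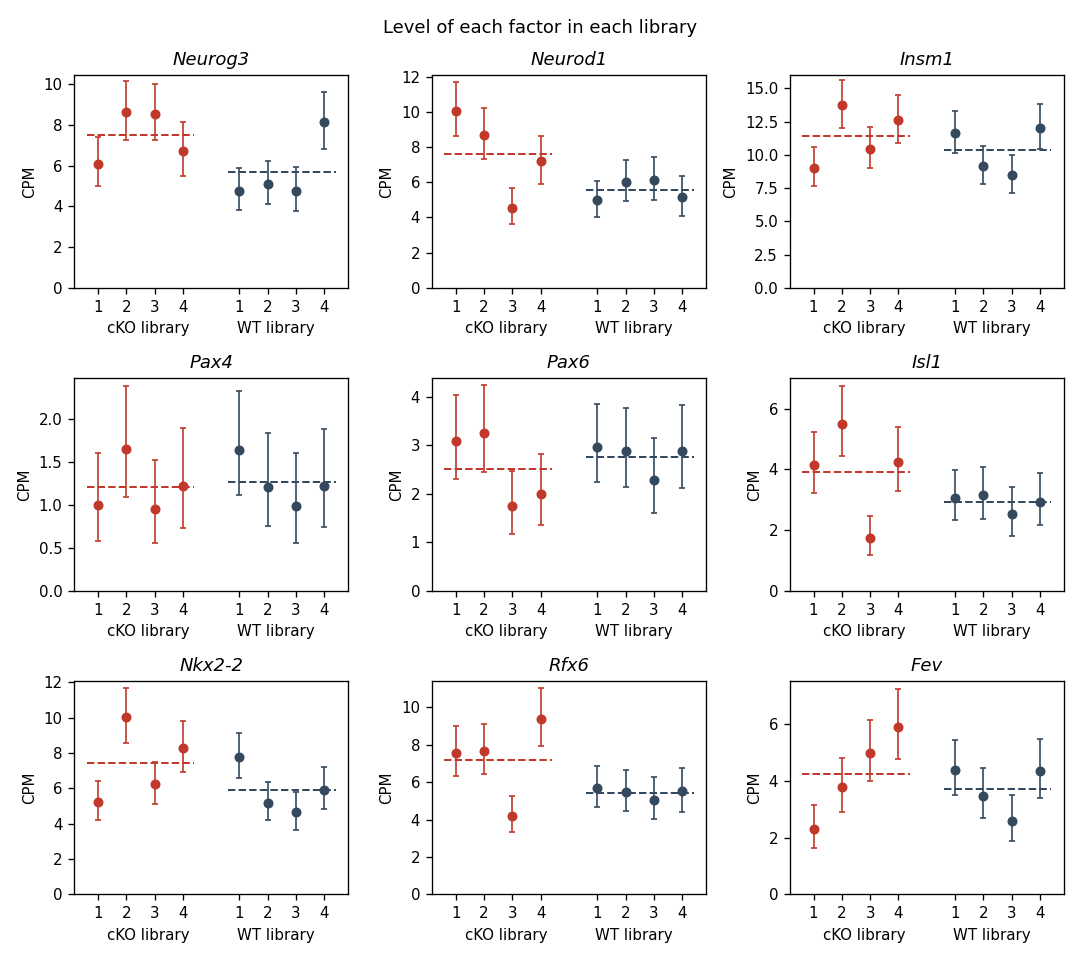
CPM of each factor in cKO libraries 1 to 4 (red, left) and WT libraries 1 to 4 (blue, right), with exact Poisson 95% intervals, which cover counting error only, and dashed lines at the group means. For Neurod1, Rfx6 and Isl1 cKO library 3 is the lowest of all 8 libraries and the other cKO libraries are above all WT libraries.

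**Figure D3:**
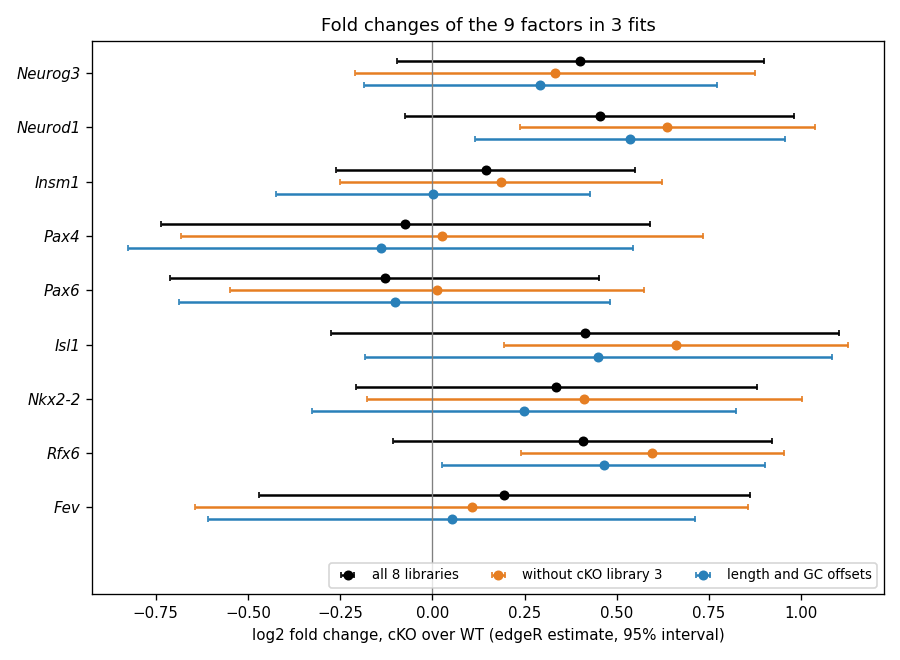
log2 fold change of cKO over WT with 95% intervals from edgeR for all 8 libraries (black), without cKO library 3 (orange) and with offsets for gene length and GC content (blue). With all libraries and no offsets every interval includes 0, with offsets those of Neurod1 and Rfx6 lie above 0, and those of Neurod1, Rfx6 and Isl1 lie above 0 without cKO library 3. That library was the lowest of the 8 for Neurod1, Rfx6 and Isl1, so leaving it out raises their estimates. The intervals are not adjusted for the number of genes, and every edgeR adjusted p in these fits was at least 0.8845.

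The cKO libraries varied more than the WT libraries for 8 of the 9 factors. The spread is given as the chi-square of the counts around the group rate per degree of freedom, which is near 1 where counting error alone acts. For Rfx6 it was 11.1 in cKO and 0.206 in WT, for Isl1 11.1 in cKO and 0.434 in WT, and for Neurod1 12.8 in cKO and 1.09 in WT. Among WT libraries these 3 factors thus differed by about the counting error. Neurog3 was the exception, at 3.66 in cKO and 7.92 in WT. Without both libraries 3 the values for Rfx6, Isl1 and Neurod1 were 1.98, 2.05 and 3.87 in cKO and 0.0391, 0.0667 and 1.06 in WT, while Fev and Nkx2-2 stood at 13.4 and 12.9 in cKO and 1.17 and 5.23 in WT. The cKO spread was the wider for 64.9% of all genes tested with all libraries and for 60.1% without both libraries 3.

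Set against its own mean over the 8 libraries, 8 of the 9 factors were above it in cKO library 2, 8 in cKO library 4, 4 in cKO library 1 and 2 in cKO library 3. In WT libraries 1 to 4 the numbers were 5, 2, 0 and 5. Library 3 of WT, where no factor reached its mean, had the highest enterocyte marker sum of the 8 libraries, at 22040 CPM. The part of this in the low values was not tested. Without WT library 3 the log2 fold change was 0.33 for Neurog3, 0.50 for Neurod1, 0.38 for Rfx6 and 0.35 for Isl1. It was 0.24 for Nkx2-2, 0.061 for Insm1, 0.060 for Fev, -0.17 for Pax4 and -0.21 for Pax6. Each of these was lower than with all 8 libraries, except that of Neurod1. By the order of the libraries, the mean difference in library rank was 0.75 between Isl1 and Rfx6 and between Insm1 and Nkx2-2, and 3.5 between Neurod1 and Fev, the least alike of the 36 pairs.

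**Figure D4:**
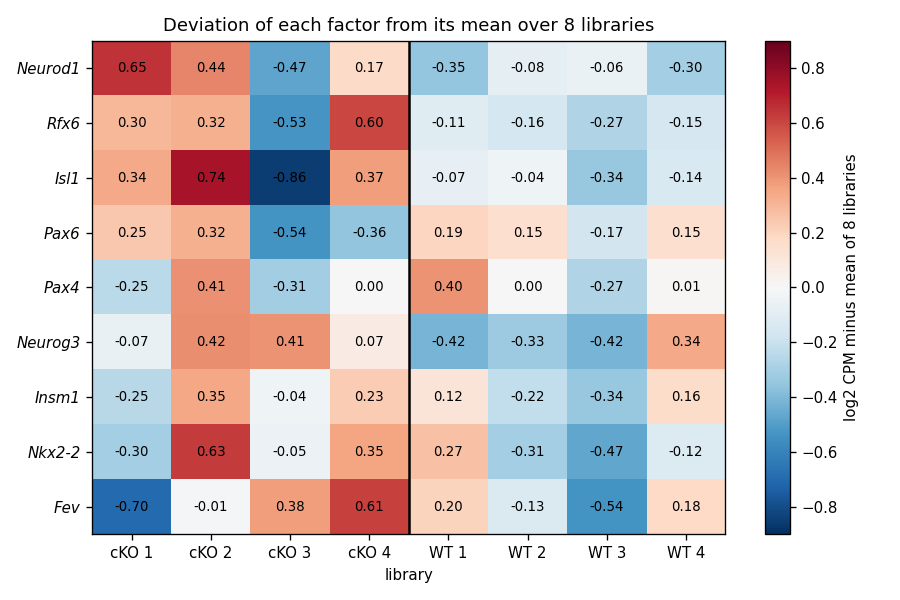
log2 CPM of each factor (rows) minus its mean over the 8 libraries, by library (columns, cKO left of the line and WT right of it). Neurod1, Rfx6 and Isl1 are positive in cKO libraries 1, 2 and 4 and negative in cKO library 3, and all 9 are negative in WT library 3.

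The deviations of the factors in cKO library 3 are given beside the GC content of their transcripts. The median deviation of genes tested from their own mean in that library was -0.39 on the log2 scale for GC of 40% to 45% and 0.28 for GC of 55% to 60%. Neurod1, Rfx6 and Isl1, with 43.6%, 44.8% and 45.7% GC, were at -0.47, -0.53 and -0.86 in it. Neurog3 and Fev, with 57.3% and 63.2% GC, were at 0.41 and 0.38. Insm1 and Nkx2-2, with 62.0% and 55.7% GC, were near their mean, at -0.039 and -0.049. Pax6, with 49.3% GC, was at -0.54 and Pax4, with 54.7% GC, at -0.31. The medians of the other classes were -0.070 for 45% to 50%, which holds Isl1 and Pax6, and 0.16 for 50% to 55%. For 60% and over, which holds Insm1 and Fev, the median was 0.30. All factors but Neurog3 and Fev were below the median of their own class, and Isl1 was the farthest below. With the length and GC trend taken out, the deviations in cKO library 3 were -0.15 for Neurod1, -0.28 for Rfx6, -0.66 for Isl1, 0.18 for Neurog3 and 0.12 for Fev. For the other factors they were -0.32 for Insm1, -0.28 for Nkx2-2, -0.50 for Pax4 and -0.52 for Pax6, farther from 0 than before for all of these but Pax6. Of Neurod1, Rfx6 and Isl1, only Isl1 then had cKO library 3 below every WT library. With the trend taken out, WT libraries 1 to 4 were at -0.336, -0.1415, -0.150 and -0.380 for Neurod1. They were at -0.099, -0.201, -0.337 and -0.217 for Rfx6. In the fit with these offsets the log2 fold changes were 0.53 ± 0.19 (SE) for Neurod1 and 0.46 ± 0.20 for Rfx6, with edgeR p of 0.0173 and 0.0396 before adjustment and 0.999 after it for both. Isl1 was at 0.45 ± 0.29, Neurog3 at 0.29 ± 0.22 and Insm1 at 0.0026 ± 0.19. Without both libraries 3 and without offsets, Neurod1 was at 0.68, Rfx6 at 0.56 and Isl1 at 0.60, each with an edgeR adjusted p of at least 0.624.

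**Figure D5:**
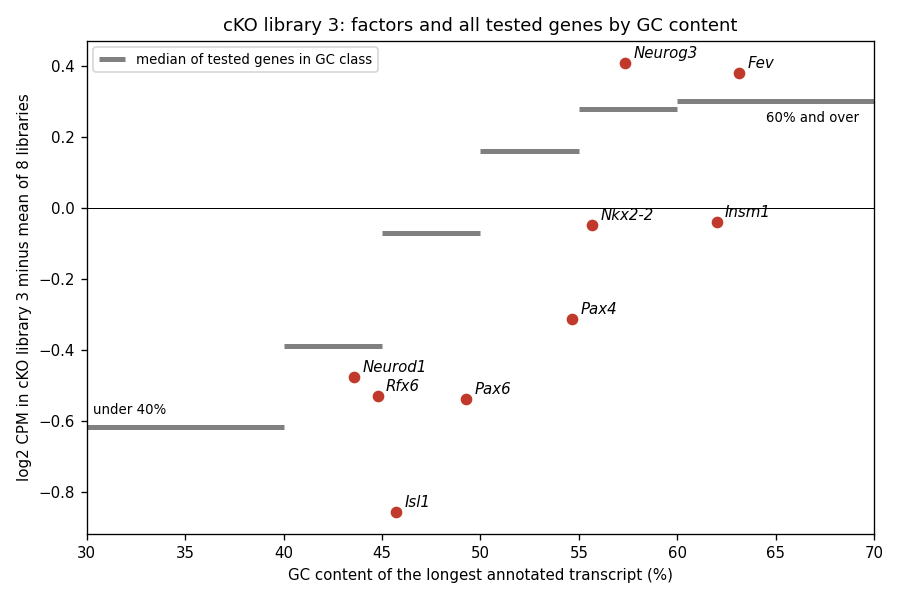
Deviation of each factor (red) in cKO library 3 from its mean over 8 libraries, in log2 CPM, against the GC content of its longest GENCODE M21 transcript, with grey bars for the median of all tested genes in each GC class. The factors with 43.6% to 49.3% GC are lowest, and Neurog3 and Fev, at 57.3% and 63.2% GC, are highest.

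The ratio of Neurog3 and Pax4 to the other factors, Fev left out, did not separate the genotypes. The log2 ratio of the summed FPKM of Neurog3 and Pax4 to that of Pax6, Isl1, Rfx6, Nkx2-2, Neurod1 and Insm1 was -1.42, -1.22, -0.62 and -1.43 in cKO libraries 1 to 4 and -1.43, -1.27, -1.30 and -0.84 in WT libraries 1 to 4. The means were -1.17 ± 0.38 in cKO and -1.21 ± 0.26 in WT (SD, n = 4 each). The highest ratio of all was in cKO library 3, where Neurog3 was high and Neurod1, Rfx6 and Isl1 were low. The difference of the means, cKO minus WT, was 0.037 with all libraries, -0.15 without cKO library 3 and 0.16 without WT library 4.

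Around these 9 factors, 34 genes listed as hormones and granule proteins were examined, of which 30 were tested. By edgeR 0 passed the adjusted threshold, and 5 had an unadjusted p under 0.05, against 3.9% of all genes tested. The estimate was higher in cKO for 24 and lower for 6, against 50.5% of all genes higher, with a median log2 fold change of 0.19. The lowest was that of Scg3, at -0.53 ± 0.26 (SE, edgeR adjusted p of 0.921), and -0.67 without cKO library 3. Sst, Gcg and Chga had the smallest p of the list. Sst, the somatostatin of D cells, was at 60.5 ± 13.8 CPM in cKO and 36.1 ± 3.57 CPM in WT (SD, n = 4 each, edgeR adjusted p of 0.489, and 0.0227 by DESeq2). Its cKO and WT libraries did not overlap, as held for 3.21% of all genes tested. Its log2 fold change was 0.75 ± 0.16 (SE), and 0.59 without cKO library 3. Gcg, the precursor of GLP-1, was at 38.0 ± 4.73 CPM in cKO and 30.7 ± 2.30 CPM in WT, and the granule protein Chga at 134 ± 15.4 CPM in cKO and 103 ± 23.2 CPM in WT, each with an edgeR adjusted p of 0.921. Without cKO library 3 the log2 fold change was 0.30 for Gcg and 0.40 for Chga, against 0.31 and 0.37 with all libraries. With the length and GC offsets it was 0.64 for Sst, 0.42 for Gcg and 0.26 for Chga. Summed over the 34 genes, cKO libraries 1 to 4 had 1194, 1379, 1066 and 1190 CPM and WT libraries 1 to 4 had 1093, 918, 1046 and 1075 CPM. The 9 transcription factors together had 4.38 ± 0.380 CPM per 100 CPM of these genes in cKO and 4.22 ± 0.441 in WT. The 34 genes include Reg4, at 234.3 CPM in cKO and 193.3 CPM in WT, and Ddc, at 186.5 CPM in cKO and 181.4 CPM in WT. Neither encodes a hormone, so the ratio does not measure factors per hormone output.

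Of 19 other regulators of the lineage, 16 were tested, with 7 higher and 9 lower in cKO, against 50.5% of all genes higher. Their median log2 fold change was -0.056. By edgeR 0 were called and 2 had an unadjusted p under 0.05, against 3.9% of all genes tested. Foxa2, a forkhead factor of gut endoderm, had 12.5, 14.8, 12.9 and 13.6 CPM in cKO libraries 1 to 4 and 12.3, 8.95, 9.95 and 9.97 CPM in WT libraries 1 to 4, a log2 fold change of 0.39 ± 0.15 (SE). Rfx3, a relative of Rfx6, was at 12.3 ± 3.10 CPM in cKO and 17.8 ± 2.69 CPM in WT (SD, n = 4 each), a log2 fold change of -0.53 ± 0.19 (SE) that was -0.36 with the length and GC offsets and -0.39 without cKO library 3. The cKO and WT libraries did not overlap for Foxa2 or for Rfx3, as held for 3.21% of all genes tested, and each had an edgeR adjusted p of 0.921. Myt1, a zinc-finger factor of endocrine precursors, was at 0.36 ± 0.24 (edgeR adjusted p of 0.921). Without cKO library 3 Foxa2 was at 0.41 and Myt1 at 0.48. With the length and GC offsets Foxa2 was at 0.28 and Myt1 at 0.36.

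Of 21 regulators of secretory fate and of secretory cells, 20 were tested. The list was not limited to genes that act upstream of Neurog3. The estimate was higher in cKO for 17 and lower for 3, against 50.5% of all genes higher, but the median log2 fold change was 0.072. This split did not hold with the length and GC offsets. The estimates of Gfi1, Spdef, Dll4, Hes6, Klf4, Foxa3, Bhlha15 and Cbfa2t3 then turned lower, from -0.020 (Gfi1) to -0.11 (Hes6). No gene of the list turned the other way. By edgeR 0 were called and 0 had an unadjusted p under 0.05, against 3.9% of all genes tested. The Notch ligand Dll1 was at 48.4 ± 5.83 CPM in cKO and 44.6 ± 2.02 CPM in WT (SD, n = 4 each). Atoh1, the factor that opens the secretory fate, was at 26.7 ± 0.527 CPM in cKO and 27.2 ± 0.832 CPM in WT, and Hes1, the Notch target that represses it, at 53.9 ± 7.51 CPM in cKO and 48.8 ± 5.53 CPM in WT. Those 3 genes were chosen after their values were seen. The smallest p were those of Sox9, a progenitor factor, at a log2 fold change of 0.27 ± 0.13 (SE), Xbp1, a factor of secretory cells, at 0.19 ± 0.12, and Creb3l1 at 0.16 ± 0.12, each with an edgeR adjusted p of 0.921. With the length and GC offsets Creb3l1 was at 0.025 and Xbp1 at 0.11, and without cKO library 3 Sox9 was at 0.21, Xbp1 at 0.12 and Creb3l1 at 0.082.

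The genes most like the factors in the order of the libraries were sought among 13498 other genes with at least 1 CPM on average. The median level of the 9 factors put WT library 3 lowest, then cKO library 3, WT library 2, cKO library 1, WT library 4, WT library 1, cKO library 4 and cKO library 2 highest. Rps7, a ribosomal protein gene, had the same order (mean rank difference 0 over 8 libraries). Zfp661, Tgfbr3l, Iqcb1 and Cfap52 each differed from it by 0.25 ranks on average, where the median over all these genes was 2.75. Their edgeR log2 fold changes were 0.13 ± 0.16 (SE) for Rps7, 0.16 ± 0.23 for Zfp661, 0.12 ± 0.26 for Tgfbr3l, 0.16 ± 0.28 for Iqcb1 and 0.37 ± 0.31 for Cfap52.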

How the data were processed

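The libraries, 4 cKO and 4 WT, were made from mouse intestinal epithelium. The series' design text names Hisat2 followed by Stringtie. The sources used here do not give versions, counter or strand setting. The authors deposited raw counts per gene, with no normalization, and FPKM scaled to gene length and library size. Coordinates of 97.1% of the 53706 identifiers shared with GENCODE M21 (GRCm38), and of all 9 factors, were identical to that annotation, so that build is used.

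Counts were tested for all genes at once with edgeR 4.0.16 (R 4.3.3; TMM, default low-count filter, robust quasi-likelihood F-test, genotype only) and Benjamini-Hochberg adjustment over 14701 genes at 0.05. SE is the size of the log2 fold change over the square root of F. Log2 CPM used a prior count of 2. Single levels were compared by exact two-sided permutation of 4 against 4, whose smallest p is 0.0286. All 28 pairs of libraries differed beyond sampling noise (chi-square per degree of freedom of at least 10.8). GC content came from the longest GENCODE transcript of each gene (known for 98.3%), and offsets removed spline trends on log2 length and GC (4 degrees of freedom each) per library. Alternatives were other scaling, filters, left-out libraries, the replicate number as a block, limma 3.58.1, DESeq2 1.42.0 and log2(FPKM + 0.1) or log2(FPKM + 1). The edgeR fits were also run on simulated counts with the same spread for all genes. Those runs do not show what size of change could be detected in these libraries. Genes named are the 9 factors, Rictor, the 3 smallest p of each surrounding list (and any called gene) and the 5 genes closest in library rank. Dll1, Atoh1, Hes1, Scg3, Reg4, Ddc, genes that overlap a factor and markers at 0 are named outside this rule. So are the secretory fate regulators whose sign turned with the offsets. Members and lists were chosen with earlier results of these data known.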

Additional observations from a re-analysis of the deposited data

Results flagged for a closer look

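Of 18 groups of 4 libraries examined for the 9 factors, 2 held a library whose gap to its nearest neighbour, as a share of the range, was above Dixon's 95% critical value for 4 samples, which chance exceeds in about 1 group in 20. Neurog3 reached 8.13 CPM in WT library 4, while the other WT libraries had 4.76 to 5.09 CPM, a gap of 0.903 of the range. That library had the highest T cell marker sum of the WT libraries, 491 CPM, and the part of this was not tested. Pax6 was low in WT library 3, at 2.29 CPM against 2.87 to 2.97 CPM, a gap of 0.860 of the range, on 37 counts. The exact Poisson interval of that value, 1.61 to 3.15 CPM, includes the other WT libraries.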

How the results depend on the processing

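None of the 9 factors passed the adjusted threshold in any of the 21 alternatives, where the lowest adjusted p was 0.405, for Rfx6 by limma voom with sample quality weights. Neurog3, Neurod1, Insm1, Isl1, Nkx2-2 and Rfx6 kept a higher estimate in cKO in all 21, which use the same libraries or part of them. For Insm1 the lowest log2 fold change was 0.0026, with the length and GC offsets. The sign turned for Pax4 without WT library 1, cKO library 1 or cKO library 3 (range of log2 fold changes over left-out libraries -0.25 to 0.085), for Pax6 without cKO library 3 (range -0.27 to 0.013), and for Fev without both libraries 3 (-0.029) and with that and the length and GC offsets together (-0.10), an alternative chosen after seeing the data. The causes of these turns were not tested. An unadjusted p under 0.05 was met by Neurod1 and Rfx6 in 5 alternatives each, Isl1 in 4 and Neurog3 in 2. The difference in the ratio of Neurog3 and Pax4 to the other factors but Fev, 0.037 (cKO minus WT, log2), ranged from -0.15 to 0.16 over left-out libraries.

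Across all genes 2 were called, 0 to 3 with a library left out, 10 without a filter, 4 without both libraries 3, 8 by voom, 40 by DESeq2, 4 by limma on log2(FPKM + 0.1) with a minimum mean FPKM of 0.1 and 0 on log2(FPKM + 1). With the replicate number as a block 0 genes and 0 factors were called. Same-numbered libraries had correlations of deviations of -0.11, 0.11, 0.15 and 0.14 for numbers 1 to 4. As 1 of the 4 was below 0.1, the number was not taken as a pairing. Numbers 3 and 4 correlated best with their own number and numbers 1 and 2 did not, which is a hint from the data and not the design. Pax4 and Pax6 had the fewest counts, at 16 to 56 per library. The SE of the log2 fold change was largest for Isl1, at 0.313, then Fev, at 0.303, and Pax4, at 0.302. For Pax6 it was 0.265.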
